A study of Mus musculus with 14 samples.

Results

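The genes described here encode the liver enzymes that attach glucuronic acid, sulfate or glutathione to other molecules: the UDP-glucuronosyltransferases (UGT), the sulfotransferases (SULT) and the glutathione transferases (GST). They were taken by name, as every gene symbol in the deposited count files that begins with Ugt1a, Ugt2a, Ugt2b, Ugt3a, Sult, Gsta, Gstk, Gstm, Gsto, Gstp, Gstt, Gstz or Mgst, without the pseudogene names ending in -ps. This gave 63 of 24411 genes, namely 20 UGT, 19 SULT and 24 GST genes. No measured value entered the choice. A filter on low counts left 39 of them for testing: 14 UGT, 6 SULT and 19 GST genes.

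RNA was sequenced from mouse liver in 4 groups that crossed the genotype at Rbbp5, which encodes a core subunit of histone methyltransferase complexes, with an injection of tunicamycin, a drug that blocks N-linked glycosylation and causes stress in the endoplasmic reticulum. All mice were male littermates aged 5 to 7 months, and all carried 2 floxed Rbbp5 alleles, WT as Rbbp5 (flox/flox); Alb-CRE (-/-) and LKO as Rbbp5 (flox/flox); Alb-CRE (+/-). Tunicamycin was given into the peritoneum at 0.05 mg/kg in 500 µl of PBS with 3% DMSO, the vehicle groups received PBS with 3% DMSO, and the livers were collected 8 h after the injection. WT gave 3 vehicle and 3 tunicamycin libraries, LKO 4 of each. Cre driven by the albumin promoter acts mainly in hepatocytes, so liver cells of an LKO mouse in which it was never active keep their floxed alleles. Which other cells it reached was not measured. The sample titles spell the targeted gene RRBP5, the design text RBBP5. In bulk liver RNA, fewer cells of a type and less RNA per cell cannot be told apart.

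Conjugation makes small molecules more soluble in water, so that bile or urine can carry them away. UGT enzymes sit in the membrane of the endoplasmic reticulum and take glucuronic acid from UDP-glucuronic acid; soluble SULT enzymes take sulfate from the donor PAPS; most GST enzymes are soluble and join glutathione to reactive compounds. In the liver they act on bilirubin, steroids, bile acids, drugs and products of lipid oxidation, and their genes are known targets of the receptors CAR and PXR, the aryl hydrocarbon receptor, Nrf2 and the hepatocyte factor Hnf4a.

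Between 6507018 and 13519421 reads per library fell on genes, of which 72.5 to 75.5% were on the ribosomal RNA gene Rn45s, which left 1704479 to 3551398 other reads; the 63 genes held 9769 to 28191 reads per library. LKO vehicle libraries 3 and 4 differed by about the sampling noise (chi-square per degree of freedom 1.12, against 3.38 to 25.9 in the other 17 pairs of libraries of 1 group), so their counts were added up to make 1 sample of 13. The labels do not say that the libraries came from separate mice, so p-values measure only the spread between these samples, which may be technical. Rbbp5 was at 4.07 to 6.41 CPM in the 6 WT samples and at 1.90 to 4.15 CPM in the 7 LKO samples, with log2 fold changes of -0.87 ± 0.26 (SE) with vehicle (Benjamini-Hochberg adjusted p = 0.330, quasi-likelihood test of edgeR) and -0.90 ± 0.25 after tunicamycin (adjusted p = 0.105). LKO vehicle 1, at 4.15 CPM, lay within the WT range, so directions between genotypes rest on the labels. The hepatocyte markers Alb, Apoa1, Ttr and others summed to 15550 to 27356 CPM in every sample, while the marker Ass1 had 5 reads in all.

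The promoters of 5 genes are printed because they are the ones on which the results below turn most: the called gene Ugt3a1, and 4 genes with low values in tunicamycin samples of both genotypes. They were picked after their values were seen. Each is the 250 bases before a start of the gene, 5′ to 3′ on the gene's strand, from RefSeq on build GRCm38.p6. For Gsta3 and Ugt3a1 the RefSeq gene begins inside the window, at 21240565 and 9279822, so the last bases may be transcribed. Capitals mark matches, on either strand, to 1 of 6 motifs, any of which may overlap. Sites of C/EBP, STAT and the antioxidant response element, bound by Nrf2, were searched as TTGCNNAA, TTCNNNGAA and TGACNNNGC. The TATA box was searched by the letters TATAAA. The core bound by the aryl hydrocarbon receptor was searched as GCGTG, and the ER stress response element by its usual letters.
Gsta3, chr1:21240335-21240584, + strand: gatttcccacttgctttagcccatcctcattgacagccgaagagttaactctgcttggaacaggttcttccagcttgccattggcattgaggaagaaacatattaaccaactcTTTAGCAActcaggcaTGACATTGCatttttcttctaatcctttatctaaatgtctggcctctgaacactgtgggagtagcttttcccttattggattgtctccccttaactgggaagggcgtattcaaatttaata
Ugt2b1, chr5:86926504-86926753, - strand: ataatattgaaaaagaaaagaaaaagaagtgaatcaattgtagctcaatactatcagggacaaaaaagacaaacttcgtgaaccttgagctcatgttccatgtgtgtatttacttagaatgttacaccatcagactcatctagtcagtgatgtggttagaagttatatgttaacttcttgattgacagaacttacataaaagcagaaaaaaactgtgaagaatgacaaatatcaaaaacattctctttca
Ugt2a3, chr5:87337196-87337445, - strand: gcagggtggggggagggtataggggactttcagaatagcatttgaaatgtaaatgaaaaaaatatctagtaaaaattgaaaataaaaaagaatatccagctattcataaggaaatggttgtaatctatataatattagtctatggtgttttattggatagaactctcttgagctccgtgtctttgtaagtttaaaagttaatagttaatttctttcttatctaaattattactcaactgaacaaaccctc
Ugt1a6a, chr1:88134559-88134808, + strand: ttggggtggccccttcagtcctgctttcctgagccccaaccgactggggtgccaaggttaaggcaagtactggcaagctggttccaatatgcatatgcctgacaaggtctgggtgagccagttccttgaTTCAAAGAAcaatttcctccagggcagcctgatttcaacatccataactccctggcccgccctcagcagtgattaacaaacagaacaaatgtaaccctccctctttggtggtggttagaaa
Ugt3a1, chr15:9279579-9279828, + strand: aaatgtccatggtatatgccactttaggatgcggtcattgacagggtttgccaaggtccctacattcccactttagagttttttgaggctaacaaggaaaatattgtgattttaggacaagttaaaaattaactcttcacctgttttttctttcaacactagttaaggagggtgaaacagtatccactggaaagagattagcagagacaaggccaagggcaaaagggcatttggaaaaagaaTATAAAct

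A RefSeq promoter was found for 55 of the 63 genes and for 34 of the 39 tested ones. The C/EBP letters stood in 7 of these 34 windows (20.6%, against 10.8% of 27025 genes), the TATA box in 5 (14.7%, against 14.3%), the antioxidant response element core in 4 (11.8%, against 11.5%), the aryl hydrocarbon receptor core in 8 (23.5%, against 30.9%) and the STAT letters in 2 (5.88%, against 8.13%). The ER stress response element stood in 0 of 34, against 0.13% of all genes. Of the printed windows, that of Gsta3 held the C/EBP and antioxidant response element letters, that of Ugt1a6a the STAT letters and that of Ugt3a1 the TATA box. Those of Ugt2b1 and Ugt2a3 held none of the 6 motifs. The TATAAA letters of Ugt3a1 stood at -8 to -3, almost all past the RefSeq start at 9279822, so they may not be an upstream element. The window of Gsta2, not printed, held TATA box letters and the aryl hydrocarbon receptor core. A match is a run of letters, and binding was not measured.

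Levels were compared between genes on the deposited FPKM scale, which divides by transcript length; the values of LKO vehicle 2 summed to 99386, those of the other libraries to 156509 to 169701. Mgst1, the membrane-bound glutathione transferase of the endoplasmic reticulum and mitochondria, was the most abundant with a mean of 262 FPKM (189 to 331 over the 13 samples), and its range did not meet that of any other gene of the 63. Below it came the pi class gene Gstp1 (mean 55.9 FPKM, 32.5 to 88.8), the mu class gene Gstm1 (54.7, 19.1 to 98.9), the alpha class gene Gsta3 (44.4, 13.2 to 76.9) and the bile acid sulfotransferase gene Sult2a8 (39.4, 13.1 to 78.5), whose ranges overlapped. The leading UGT genes were Ugt2b5 (29.2 FPKM, 16.5 to 48.1) and Ugt2b34 (27.8, 18.5 to 34.5), members of a family that glucuronidates steroids and bile acids, then Ugt2b1 (22.5, 7.24 to 43.9) and Ugt3a2 (20.1, 17.3 to 22.7). The ranges of these neighbours overlapped too. Ugt1a1, which conjugates bilirubin, had a mean of 14.9 FPKM (7.89 to 23.5), and Sult1a1, which sulfates phenols, 14.4 FPKM (9.42 to 19.4).

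**Figure D1:**
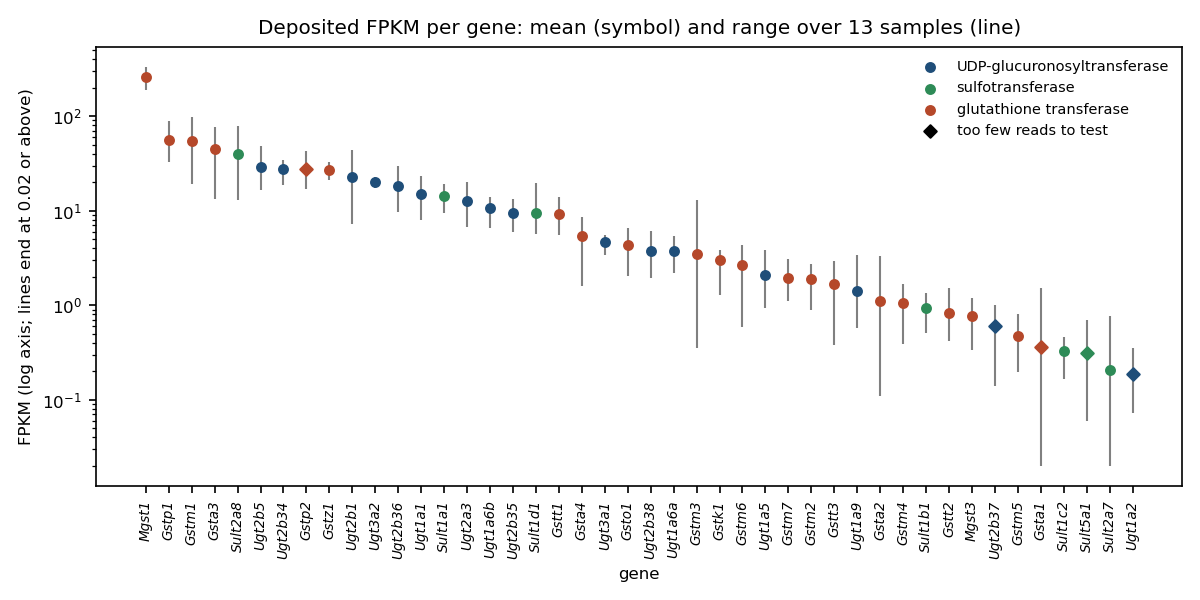
Deposited FPKM (log axis) of the 44 conjugation enzyme genes with a mean above 0.1, ordered by mean; symbols are means and lines the range over 13 samples, and diamonds mark genes with too few counted reads to test. Mgst1 stands above every other gene, and Gstp2 is the only untested gene among the leading 10.

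The 24 genes left untested had at most 18 reads in any sample. No read was counted for 14 of them: Sult1c1, Sult3a1, Sult4a1, Sult6b1, Sult2a1 to Sult2a6, Ugt2a1, Ugt2a2, Gstt4 and Mgst2. The other 10 were Ugt1a10, Ugt1a7c, Ugt1a2, Ugt2b37, Sult1e1, Sult2b1, Sult5a1, Gsta1, Gstp2 and Gsto2. The SULT family was thereby reduced most, to Sult1a1, Sult1b1, Sult1c2, Sult1d1, Sult2a7 and Sult2a8. The counts and the FPKM values disagreed for Gstp2, which had at most 8 reads in a sample and a mean of 27.3 FPKM; of its 50-base transcript windows, 50.4% also occur in another gene, chiefly Gstp1, and 51.0% of those of Gstp1 are shared. Levels of both are therefore uncertain. The same share was 58.2 to 96.0% for the tested Ugt1a genes, which lie between 88055411 and 88220002 on chromosome 1 and share their last exons. It was 47.4% for Gsta2, 41.7% for Ugt2b5, 37.4% for Ugt2b38, 20.6% for Gstt3 and 8.60% for Ugt3a1. For the mu class genes Gstm3 and Gstm1 it was 28.8 and 19.9%, in part with each other. Reads in shared stretches may not have been counted for any of these genes.

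In WT liver 8 h after tunicamycin, most conjugation enzyme transcripts had lower values than with vehicle, but none of the 39 passed the test, and 1 of the 3 treated samples lay at the vehicle level. At an adjusted p under 0.05, 0 of 39 were called (0.363% of the 9644 genes tested, 35 genes, were called). DESeq2 called 1, Gsta4, and 151 genes in all. At an unadjusted p under 0.05 in edgeR, 16 of 39 were lower (41.0%, against 6.85% of all genes) and 0 were higher (7.93% of all genes). Log2 fold changes were negative for 34 of 39 (48.3% of all genes), and their median was -0.44, against 0.01 over all genes. The medians were -0.41 for UGT, -0.34 for SULT and -0.49 for GST genes. With total count scaling, which moved the median of all genes by -0.18, the members' median was -0.63 and 36 of 39 were negative.

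The 3 WT tunicamycin samples did not behave alike. Taken over the 39 genes, the median log2 difference from the WT vehicle mean was -0.80 in WT tunicamycin 1, -0.74 in WT tunicamycin 2 and -0.03 in WT tunicamycin 3, and the median of all genes was near 0 in each. Below the lowest WT vehicle sample lay 34, 32 and 13 of the 39 genes in these samples, against 31.9, 32.4 and 28.3% of all genes, and 32 of the 39 were highest in WT tunicamycin 3 of the 3 (35.9% of all genes). The stress markers gave another order: Hspa5, the chaperone of the endoplasmic reticulum, had 197 to 253 CPM in WT vehicle and 854, 313 and 786 CPM in the treated samples 1, 2 and 3; Ddit3, the transcription factor CHOP, had 0.641 to 1.89 CPM and then 26.3, 1.30 and 20.4 CPM. So the sample with enzyme levels near vehicle had high stress markers, and WT tunicamycin 2, with low enzyme levels, had Ddit3 within the vehicle range.

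**Figure D2:**
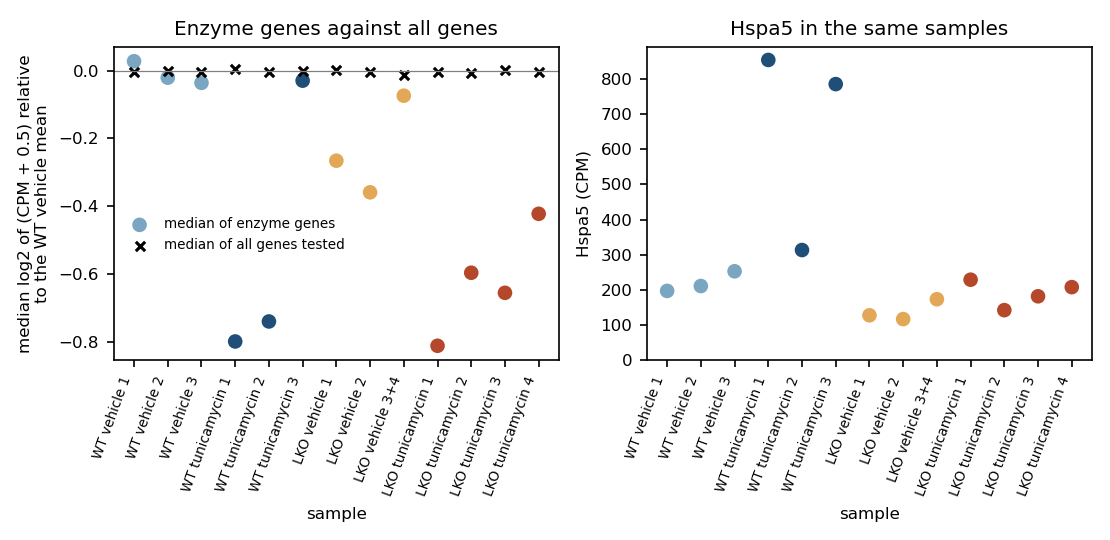
Left, the median over the 39 tested enzyme genes (circles, coloured by group) and over all genes tested (crosses) of log2(CPM + 0.5) relative to the WT vehicle mean, in each of the 13 samples; right, Hspa5 in CPM. WT tunicamycin 3 lies at -0.03 on the left although its Hspa5 is 786 CPM, and the 4 LKO tunicamycin samples lie between -0.81 and -0.42.

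Leaving out each sample in turn, the count of called genes in WT stayed at 0 in 12 of 13 cases, and without WT tunicamycin 3 it was 15, all lower: Gsta2, Gsta3, Gsta4, Gstm1, Gstm6, Gstt1, Gstt2, Gstt3, Ugt2a3, Ugt2b1, Ugt2b5, Ugt2b35, Ugt2b36, Sult1b1 and Sult2a8. In that fit 615 genes in all were called, and the median of the enzyme genes was -0.84. With no filter on low counts, 9 were called, again all lower, and 289 genes in all.

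LKO liver showed the same direction over the enzyme genes after tunicamycin, and again no gene passed the test with all samples. The count of calls was 0 of 39 (0.0311% of all genes, 3 genes, were called), and DESeq2 called 0 (37 genes in all). At an unadjusted p under 0.05, 16 were lower (41.0%, against 6.33% of all genes) and 0 higher (5.83%). Log2 fold changes were negative for 34 of 39 (49.2% of all genes), with a median of -0.41, against 0.00 over all genes. The 4 treated samples had medians of -0.81, -0.60, -0.66 and -0.42 relative to WT vehicle, and the 3 LKO vehicle samples -0.27, -0.36 and -0.07, so these 2 groups did not overlap. Hspa5 was at 142 to 229 CPM in the 4 treated LKO samples and at 117 to 173 CPM in LKO vehicle. WT tunicamycin 3 enters this comparison only through the shared filter, scaling and estimate of the spread. Leaving that sample out gave 4 calls in edgeR, all lower: Gsta3 (-1.01, adjusted p = 0.0452), Ugt1a6a (-0.93, 0.0309), Ugt2b1 (-1.12, 0.0375) and Ugt2a3 (-0.79, 0.0214). Without LKO tunicamycin 4, the treated sample with the highest median, 1 was called, Ugt1a6a (7 genes in all). With no filter on low counts 8 were called, all lower (153 genes in all).

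**Figure D3:**
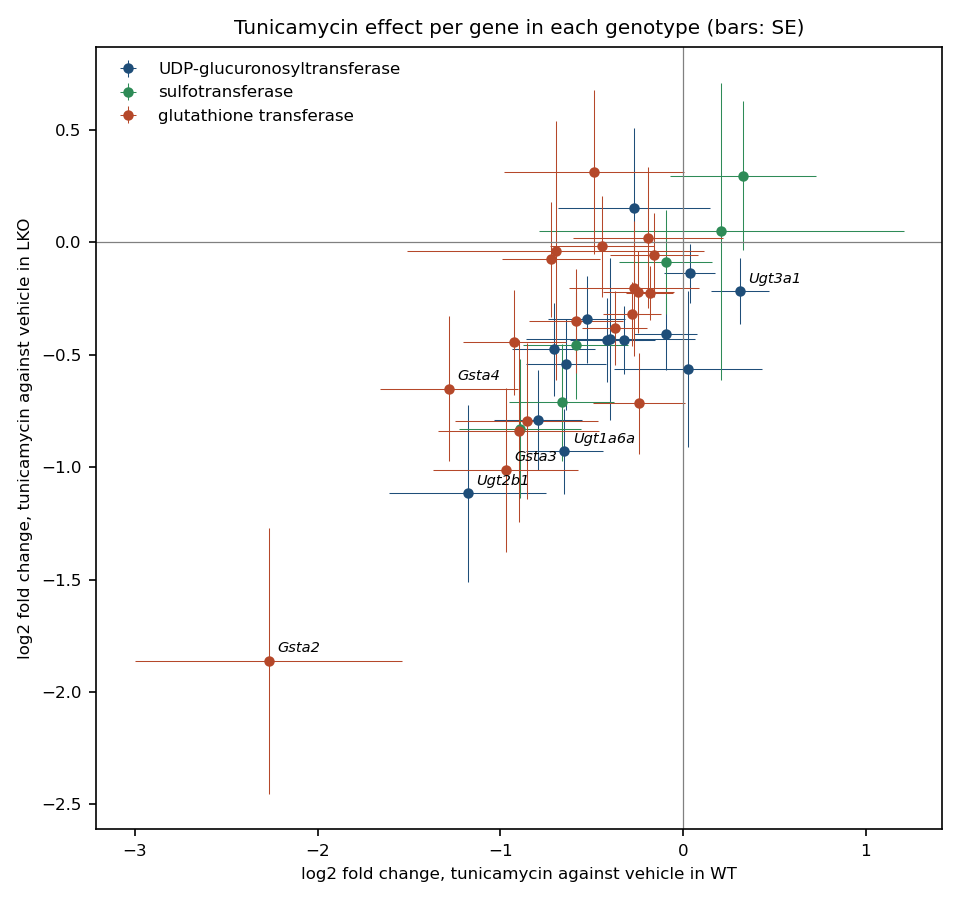
Log2 fold change with tunicamycin in WT (horizontal axis) and in LKO (vertical axis) for each of the 39 tested genes, coloured by enzyme class, with bars for the standard error. Most points lie in the lower left, Gsta2 farthest out at -2.27 and -1.86, and no gene passed the test in either comparison.

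Among the UGT genes, Ugt2b1 had one of the largest differences. Its level was 169, 227 and 215 CPM in WT vehicle, 47.2, 41.5 and 182 CPM in WT tunicamycin, 143, 92.9 and 153 CPM in LKO vehicle, and 39.0, 61.7, 47.3 and 91.3 CPM in LKO tunicamycin. In WT, 2 of 3 treated samples were far below vehicle and the third overlapped it; in LKO every treated sample was below every vehicle sample. The log2 fold changes were -1.18 ± 0.43 in WT (adjusted p = 0.206, edgeR) and -1.12 ± 0.39 in LKO (adjusted p = 0.288). Ugt2a3, which lies in the same gene cluster on chromosome 5, was at 80.5, 92.3 and 76.8 CPM in WT vehicle and at 35.1, 34.4 and 74.6 CPM in WT tunicamycin, so its groups were separate by a small margin. In LKO it was at 64.6, 56.4 and 74.5 CPM with vehicle and at 32.2, 32.1, 37.4 and 48.9 CPM with tunicamycin, again separate. Its log2 fold changes were -0.79 ± 0.24 (adjusted p = 0.137) and -0.79 ± 0.22 (adjusted p = 0.215). Ugt2b5 gave -0.71 ± 0.23 in WT and -0.48 ± 0.21 in LKO, while Ugt2b34, similar in level, gave -0.10 ± 0.17 and -0.41 ± 0.16.

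Ugt1a6a, which glucuronidates small phenols, had the smallest p of the 39 in LKO. It was at 6.87, 9.78 and 8.48 CPM in LKO vehicle and at 3.86, 4.42, 3.46 and 5.97 CPM in LKO tunicamycin, with no overlap. Its log2 fold change was -0.93 ± 0.19 (unadjusted p = 0.000146, adjusted p = 0.175, edgeR). In WT it was at 9.70, 9.61 and 10.9 CPM with vehicle and 6.88, 4.70 and 7.56 CPM with tunicamycin, separate as well, with -0.65 ± 0.21 (adjusted p = 0.159). The bilirubin enzyme gene Ugt1a1 gave -0.42 ± 0.20 in WT and -0.44 ± 0.19 in LKO. Ugt1a5 gave -0.27 ± 0.42 and 0.15 ± 0.36, differences smaller than their errors.

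The Ugt3a genes gave values near 0 or of either sign, and their difference from the other UGT genes was not tested. Ugt3a2 stayed within 96.0 to 136 CPM in all WT samples and 85.2 to 110 CPM in all LKO samples, with log2 fold changes of 0.04 ± 0.14 in WT (-0.17 with total count scaling) and -0.14 ± 0.13 in LKO. Ugt3a1 gave 0.31 ± 0.16 in WT and -0.22 ± 0.15 in LKO. On the deposited FPKM values both directions in WT turned, with log2(FPKM + 1) differences of -0.14 for Ugt3a1 and -0.11 for Ugt3a2.

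The sulfotransferase with the largest difference among well-counted genes was Sult2a8, which sulfates bile acids in mouse liver. It was at 269, 354 and 283 CPM in WT vehicle and 127, 96.5 and 265 CPM in WT tunicamycin, the third below vehicle by a small margin. In LKO it was at 145, 169 and 199 CPM with vehicle and 81.9, 99.4, 54.8 and 149 CPM with tunicamycin, where LKO tunicamycin 4 overlapped vehicle. The log2 fold changes were -0.89 ± 0.33 (adjusted p = 0.214, edgeR) and -0.83 ± 0.31 (adjusted p = 0.308). Sult1a1 gave -0.09 ± 0.26 and -0.09 ± 0.23. Sult1c2 was the 1 enzyme gene whose WT groups did not overlap with the treated samples higher (0.897 to 1.08 against 1.10 to 1.39 CPM), at 9 reads or fewer per sample (832 of 9644 genes, 8.63%, did so).

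The alpha class glutathione transferases reduce lipid peroxides and conjugate their breakdown products, and the median of their 3 tested genes was -1.28 in WT and -1.01 in LKO. Gsta3 was at 221, 217 and 238 CPM in WT vehicle and at 61.5, 62.9 and 221 CPM in WT tunicamycin. In LKO it was at 166, 128 and 203 CPM with vehicle and 45.8, 94.9, 72.4 and 115 CPM with tunicamycin. The LKO groups did not overlap; in WT the third treated sample lay within the vehicle range. Its log2 fold changes were -0.97 ± 0.40 in WT (adjusted p = 0.258, edgeR) and -1.01 ± 0.36 in LKO (adjusted p = 0.296). Gsta4, whose enzyme conjugates hydroxynonenal, had the smallest p in WT: 18.8, 17.6 and 17.5 CPM with vehicle, and 3.72, 3.89 and 14.7 CPM with tunicamycin, all below vehicle. Its log2 fold change was -1.28 ± 0.38 (unadjusted p = 0.00345, adjusted p = 0.125; DESeq2 adjusted p = 0.0453). In LKO, Gsta4 was at 11.4, 11.3 and 18.5 CPM with vehicle and 6.66, 7.03, 8.97 and 12.4 CPM with tunicamycin, which overlapped, and gave -0.65 ± 0.32. Gsta2, named after its values were seen, was low in count and partly shared in sequence, at 3.08 to 5.25 CPM in WT vehicle and 0.138 to 2.01 CPM in WT tunicamycin, and gave -2.27 ± 0.73 in WT and -1.86 ± 0.59 in LKO.

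In the mu class, all 7 genes had negative log2 fold changes in WT (-0.92 to -0.16) and 6 of 7 in LKO (-0.84 to 0.02; 7 of 7 with total count scaling). Gstm1, its most abundant gene, was at 235, 184 and 208 CPM in WT vehicle and 60.5, 61.3 and 214 CPM in WT tunicamycin. In LKO it was at 191, 114 and 263 CPM with vehicle and 77.0, 65.1, 100 and 181 CPM with tunicamycin, and the groups of both genotypes overlapped. The log2 fold changes were -0.90 ± 0.44 and -0.84 ± 0.41. Gstm7 gave -0.16 ± 0.24 and -0.06 ± 0.19. The 3 theta class genes had negative values in both genotypes (medians -0.72 and -0.35). Gsto1, a dehydroascorbate reductase, gave -0.24 ± 0.25 in WT and -0.72 ± 0.23 in LKO, where every treated sample (6.64 to 9.88 CPM) was below every vehicle sample (10.9 to 15.8 CPM).

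The remaining glutathione transferases named here gave the following values. Mgst1 was at 582 to 642 CPM in WT vehicle, 441 to 653 in WT tunicamycin, 415 to 556 in LKO vehicle and 359 to 530 in LKO tunicamycin, and gave -0.25 ± 0.20 and -0.22 ± 0.18. Gstz1, which acts in tyrosine breakdown, gave -0.18 ± 0.13 and -0.22 ± 0.12, the kappa class gene Gstk1 -0.28 ± 0.16 and -0.32 ± 0.14, and Gstp1 -0.37 ± 0.18 and -0.38 ± 0.16. Mgst3, named after its values were seen, gave -0.49 ± 0.49 and 0.31 ± 0.37, with overlapping groups.

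**Figure D4:**
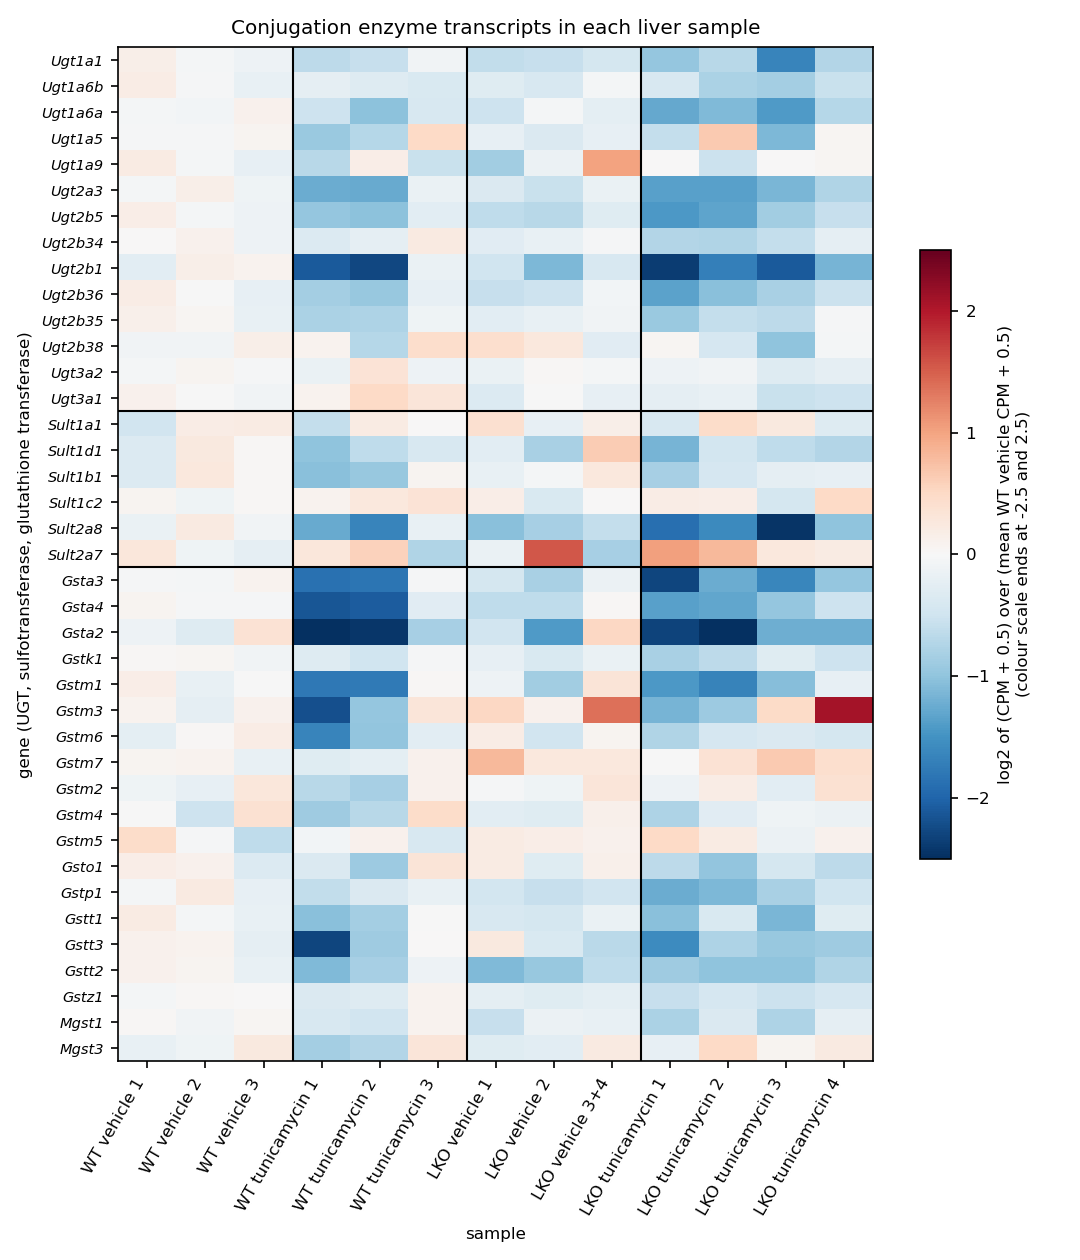
Each tested gene (rows, grouped into UGT, SULT and GST) in each of the 13 samples (columns), as log2 of CPM + 0.5 over the WT vehicle mean plus 0.5, blue where lower and red where higher, with the colour scale ending at -2.5 and 2.5. WT tunicamycin 1 and 2 and the LKO tunicamycin samples are mostly blue, WT tunicamycin 3 is near white, and Gstm3 is red in LKO vehicle 3+4 and LKO tunicamycin 4.

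Counts over samples gave a similar picture for groups that do not overlap. With tunicamycin, 10 of 39 genes were lower in every treated than in every vehicle sample in WT (8.65% of all genes) and 1 higher; in LKO 10 were lower (6.55% of all genes) and 0 higher (5.03%). Summed by class, the UGT genes were at 968 to 1074 CPM in WT vehicle, 581 to 969 in WT tunicamycin, 746 to 908 in LKO vehicle and 482 to 719 in LKO tunicamycin. The GST sums were 1342 to 1424, 799 to 1421, 1050 to 1309 and 662 to 1100 CPM, and the SULT sums 363 to 499, 196 to 373, 259 to 366 and 154 to 236 CPM, in the same order.

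Markers of other liver cells were read beside the enzyme genes, and none was called with tunicamycin in either genotype. The 8 endothelium markers were 4 positive and 4 negative with tunicamycin in WT (median -0.01), and 5 and 3 in LKO (median 0.03). All 9 macrophage markers had positive log2 fold changes with tunicamycin in both genotypes (4 of 9 in WT with total count scaling), none called. The medians were 0.18 in WT and 0.55 in LKO. At an unadjusted p under 0.05 in edgeR, 0 of 9 were higher in WT (7.93% of all genes) and 6 of 9 in LKO (5.83%). Their summed level was 41.6 to 52.6 CPM in WT vehicle, 46.9 to 60.7 in WT tunicamycin, 32.5 to 55.3 in LKO vehicle and 51.7 to 97.5 in LKO tunicamycin. The neutrophil markers measured (S100a8, S100a9 and Retnlg) summed to 0.128 to 0.875, 0.154 to 7.84, 0.474 to 2.04 and 3.37 to 6.64 CPM in these groups, with S100a9 at 0 in 2 samples and Retnlg in 6. Only 2 neutrophil markers were tested, and both were higher with tunicamycin at an unadjusted p under 0.05 in edgeR in each genotype. Their medians were 2.77 in WT and 2.07 in LKO. The 9 hepatocyte markers tested were split in WT, 5 positive and 4 negative (3 and 6 with total count scaling), and in LKO 4 positive and 5 negative, with a median of -0.20. Between genotypes after tunicamycin they were 3 positive and 6 negative with a median of -0.14, and 5 and 4 with a median of 0.03 under total count scaling. The part of these markers in the enzyme differences was not tested.

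With vehicle, LKO liver had somewhat lower values than WT for many of the genes, none of which passed the test. The count of calls was 0 of 39 (0.0415% of all genes, 4 genes, were called), and DESeq2 called 0 (17 genes in all). At an unadjusted p under 0.05, 5 were lower (12.8%, against 3.44% of all genes) and 1 was higher (4.71% of all genes). Log2 fold changes were negative for 29 of 39 (49.1% of all genes), with a median of -0.18, and for 34 of 41 with a median of -0.31 without LKO vehicle 3 and 4. In 12 of 39 every LKO sample was below every WT sample (7.58% of all genes), and in 1, Gstm7, every one was above (7.52%). The smallest p was that of the theta class gene Gstt2, at 4.79, 4.61 and 3.79 CPM in WT and 1.78, 2.04 and 2.67 CPM in LKO, separate at 45 reads or fewer per sample. Its log2 fold change was -0.99 ± 0.25 (unadjusted p = 0.00107, adjusted p = 0.260, edgeR).

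Several well-counted genes were lower in LKO with vehicle. Sult2a8 gave -0.82 ± 0.33, Ugt1a1 -0.55 ± 0.20, Ugt2b5 -0.53 ± 0.22 and Gstp1 -0.51 ± 0.18 (adjusted p = 0.542, 0.499, 0.550 and 0.440, edgeR), each with no overlap between the groups. Ugt1a1 was at 48.4, 42.2 and 39.9 CPM in WT and 28.1, 29.2 and 31.9 CPM in LKO, and Gstp1, a gene known for its high level in male mouse liver, at 111, 133 and 98.7 CPM in WT and 82.7, 75.9 and 82.2 CPM in LKO. Gstm7 went the other way, at 4.79, 4.87 and 3.94 CPM in WT and 8.29, 5.55 and 5.58 CPM in LKO, with 0.48 ± 0.21 (adjusted p = 0.578). Gstm3 gave 0.84 ± 0.67 and Sult1a1 0.14 ± 0.25, both with overlapping groups.

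**Figure D5:**
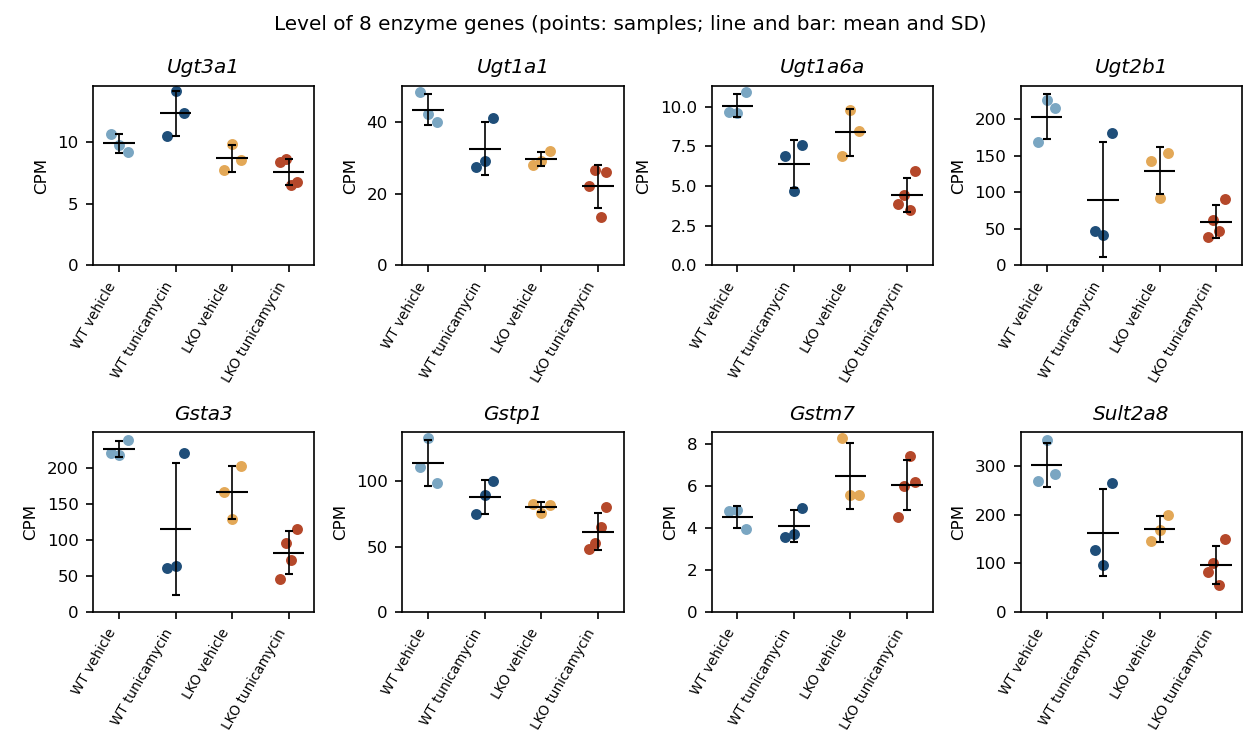
CPM of 8 genes in the 4 groups; points are samples, horizontal lines group means and bars SD (n = 3, 3, 3 and 4). Ugt1a1 is lower in every LKO than in every WT vehicle sample, and Ugt3a1 is lower in every LKO than in every WT tunicamycin sample. For Ugt2b1 and Gsta3, 1 WT tunicamycin sample stands within the WT vehicle range, and for Sult2a8 1 stands just below it.

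After tunicamycin, Ugt3a1 was the 1 of 39 genes called between the genotypes, lower in LKO (0.861% of all genes were called, and 0.550% were called lower). The UGT3 enzymes transfer sugars other than glucuronic acid. Ugt3a1, at positions 9279829 to 9315036 on chromosome 15 (mm10), was at 10.5, 14.1 and 12.3 CPM in WT tunicamycin and 8.39, 8.59, 6.52 and 6.73 CPM in LKO tunicamycin, with no overlap. With vehicle it was at 10.7, 9.74 and 9.18 CPM in WT and 7.70, 9.86 and 8.48 CPM in LKO, which overlapped. Its log2 fold change after tunicamycin was -0.71 ± 0.15 (95% interval -1.05 to -0.37, adjusted p = 0.0405, edgeR), 1.63-fold lower. DESeq2 called it as well (adjusted p = 0.0206). The call was lost with total count scaling (-0.55, adjusted p = 0.0580) and when any 1 of 9 samples (3 WT vehicle, 3 WT tunicamycin, LKO tunicamycin 2, 3 and 4) was removed; with 1 sample removed the log2 fold change ranged from -0.82 to -0.60, and on the deposited FPKM values the log2(FPKM + 1) difference was -0.14 (adjusted p = 0.672, limma).

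This comparison shares its WT tunicamycin samples with the tunicamycin comparison in WT. At an unadjusted p under 0.05, 8 of 39 were lower (20.5%, against 8.24% of all genes) and 1 was higher (7.55%), and 4 were separate and lower (6.58% of all genes), namely Ugt3a1, Ugt1a1, Ugt1a6b and Gstz1; 0 were separate and higher (6.34%). Log2 fold changes were negative for 25 of 39 (52.0% of all genes) with a median of -0.23 (all genes -0.01), for 20 of 39 with a median of -0.07 under total count scaling, which moved the median of all genes by 0.14, and for 16 of 41 with a median of 0.20 without WT tunicamycin 3. The direction over the set after tunicamycin thus turned with 1 sample. For Ugt2b1 the difference was -0.59 ± 0.40, and 0.43 without that sample. For Ugt1a1 it was -0.57 ± 0.19 (27.5, 29.2 and 41.1 CPM in WT, 22.1, 26.7, 13.6 and 25.9 CPM in LKO, adjusted p = 0.172, edgeR), for Gstp1 -0.52 ± 0.17 (adjusted p = 0.150) and for Sult2a8 -0.75 ± 0.31 (adjusted p = 0.248), which was -0.21 without WT tunicamycin 3. The mu class had positive values for 5 of 7 genes (7 of 7 with total count scaling): Gstm7 0.58 ± 0.22, Gstm2 0.53 ± 0.26 and Gstm3 1.49 ± 0.72. Gstm3 was at 1.10, 3.24 and 8.49 CPM in WT tunicamycin and 2.80, 3.38, 9.78 and 30.4 CPM in LKO tunicamycin, so that LKO tunicamycin 4 stood far above the others.

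Markers of stellate cells mostly had higher values in LKO samples. All 7 tested had positive log2 fold changes after tunicamycin (median 0.62) and 6 of 7 with vehicle (median 0.42), none called. At an unadjusted p under 0.05 in edgeR, 4 of 7 were higher after tunicamycin (7.55% of all genes) and 3 of 7 with vehicle (4.71%). The list of 8 summed to 68.9 to 112 CPM in WT vehicle, 94.8 to 131 in WT tunicamycin, 116 to 159 in LKO vehicle and 110 to 171 in LKO tunicamycin. Markers of bile duct cells, mostly Spp1, summed to 8.75 to 11.7, 8.49 to 42.5, 17.5 to 55.7 and 35.9 to 111 CPM. Sox9 had 450 reads in all, and Krt19, Krt7, Epcam and Cldn7 were at 0 in 2, 2, 3 and 6 of the 13 samples. Only 2 bile duct markers were tested, none called. Between genotypes both were positive with vehicle, and 1 was positive and 1 negative after tunicamycin. Their part in the differences between genotypes was not tested.

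Whether tunicamycin acted differently in the genotypes was tested as the interaction, and no gene of the 39 was called (0% of all genes, 0 genes; DESeq2 called 0). At an unadjusted p under 0.05, 1 was lower in LKO relative to WT (2.79% of all genes) and 0 were higher (2.13%). The 1 was Ugt3a1, with -0.53 ± 0.22 (95% interval -1.02 to -0.04, unadjusted p = 0.0258, adjusted p = 0.935, edgeR); on log2(FPKM + 1) it was 0.0651, of the opposite sign. The interaction was negative for 16 (53.5% of all genes) and positive for 23 genes, with a median of 0.06. Without WT tunicamycin 3 it was negative for 9 of 41, with a median of 0.37, and without WT tunicamycin 1 for 28 of 41, with a median of -0.12. With total count scaling it was negative for 7 of 39, with a median of 0.19 (all genes 0.13). The tunicamycin effects in the 2 genotypes were therefore not shown to differ, and the intervals for single genes were wide: the 95% interval of the difference ran from -1.26 to 1.17 for Gsta3 and from -1.25 to 1.38 for Ugt2b1.

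Genes that supply and work beside these enzymes were read from 7 lists. Of 4 genes for UDP-glucuronic acid, none was called, and with tunicamycin 2 were positive and 2 negative in WT (1 and 3 with total count scaling), 1 positive and 3 negative in LKO. Slc35b1, a sugar nucleotide transporter family gene, gave 0.66 ± 0.20 in WT. Ugp2, which makes UDP-glucose, gave -0.72 ± 0.22 with tunicamycin in WT and -0.62 ± 0.20 in LKO, and Ugdh, which makes UDP-glucuronic acid, -0.42 ± 0.15 in LKO. Of 8 genes for PAPS and sulfate and of 9 tested for glutathione, none was called in any comparison. With tunicamycin in WT, the PAPS genes were 4 positive and 4 negative with a median of 0.03, and the glutathione genes 6 positive and 3 negative with a median of 0.15. With total count scaling these were 3 positive with a median of -0.16, and 3 positive with a median of -0.04. The PAPS synthase gene Papss2 gave -0.54 ± 0.20 and Gclc, the catalytic subunit of the rate-limiting enzyme of glutathione synthesis, -0.59 ± 0.21 with tunicamycin in WT. Chac1, which breaks glutathione down, went the other way, with 1.34 ± 0.43 in WT and 1.20 ± 0.46 in LKO (adjusted p = 0.155 and 0.326, edgeR). None of 8 efflux transporters and none of 7 tested deconjugating enzymes was called; among the latter the carboxylesterase gene Ces1d gave -1.46 ± 0.46 in WT and -1.60 ± 0.43 in LKO, with no overlap between groups. Of the 7 deconjugating enzymes, 5 were negative with tunicamycin in WT (median -0.35) and 6 in LKO (median -0.31). Among 16 tested genes for other conjugations, 12 were negative in WT (median -0.32) and 12 in LKO (median -0.24). At an unadjusted p under 0.05 in edgeR, 5 of the 16 were lower in WT (6.85% of all genes) and 7 in LKO (6.33%), and 2 were higher in each. Lower values were thus not limited to the UGT, SULT and GST genes. As3mt, an arsenic methyltransferase, was the 1 of the 16 called, higher with tunicamycin in WT (1.11 ± 0.22, adjusted p = 0.0399, edgeR). Baat, which conjugates bile acids with taurine or glycine, gave -0.60 ± 0.16 in WT and -0.60 ± 0.14 in LKO (adjusted p = 0.0923 and 0.177, edgeR).

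Among 16 tested receptors and regulators of conjugation genes, 1 was called: Hnf4a, a nuclear receptor that maintains hepatocyte gene expression, had a lower level in tunicamycin-treated LKO than WT liver (-0.54 ± 0.12, adjusted p = 0.0405, edgeR; -0.39 and adjusted p = 0.116 with total count scaling). It is also 1 of the hepatocyte markers. Nr1i3, the receptor CAR, gave -0.72 ± 0.21 with tunicamycin in WT and -0.52 ± 0.20 in LKO against WT with vehicle (adjusted p = 0.126 and 0.499), in both cases with no overlap between groups. Ghr, the growth hormone receptor, gave -0.43 ± 0.15 with tunicamycin in WT and -0.40 ± 0.14 in LKO, and Ppara -0.52 ± 0.17 in WT, none called. Over the list the median was -0.05 in WT and -0.18 in LKO with tunicamycin, and 11 of 16 were negative in each (15 of 16 in WT with total count scaling).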

How the data were processed

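Liver polyA RNA was sequenced in 14 libraries. The deposited tables hold raw read counts per gene, made by the authors with STAR, and FPKM values, made by the authors with Cufflinks; reads were trimmed with Trimmomatic and the build was mm10, per the submitters' processing notes, and tool versions are not given in the sources used here. The column of reads on the gene's strand was used, which holds 99.5 to 99.6% of reads assigned by strand. LKO vehicle libraries 3 and 4 were summed, since a chi-square test of their counts found little beyond sampling noise. Depth limits genes under about 20 reads. The number of unused per-sample columns was 0.

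Counts of all genes were fitted in 1 model with a mean for each of the 4 groups (edgeR 4.0.16, R 4.3.3, TMM scaling, filterByExpr, quasi-likelihood test, Benjamini-Hochberg adjustment over 9644 genes, called at an adjusted p under 0.05). CPM are counts relative to the library total after TMM scaling, Rn45s included. Fold changes are given with SE, 95% intervals use the 9 residual degrees of freedom, and n is 3 for every group except LKO tunicamycin with 4. The test was tried on simulated data with known changes. Alternatives used DESeq2 1.42.0, limma 3.58.1 on log2(FPKM + 1), other filters and scalings, a replicate block, and each sample left out in turn. Members named with values were those called in any comparison and the member with the smallest p in each comparison. Also named were the 3 largest in each direction where the mean log2 CPM reached 2, and the most abundant member of each family. Gsta2, Gstm6, Mgst3, Sult1c2, Ugt2b34 and the genes named only in counts were added after their values were seen. Members and gene lists were chosen with earlier results of these data known. Some results on regulators are not reported here.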

Additional observations from a re-analysis of the deposited data

How the results depend on the processing

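The count of called enzyme genes depended on the settings in 4 of the 5 comparisons and was 0 under each setting for the interaction. With tunicamycin in WT it was 0, and became 1 with DESeq2 (Gsta4), 9 with no filter on low counts and 1 with the replicate block (Gsta2). Over all genes these settings called 151, 289 and 38. Leaving out 1 sample gave 0 to 15, the 15 without WT tunicamycin 3, where 615 genes in all were called. With tunicamycin in LKO it was 0, became 8 with no filter (153 genes in all), and ranged from 0 to 4 with 1 sample left out (67 genes in all where it was 4). Between genotypes with vehicle it became 1 with no filter (Sult5a1, among 84 genes in all) and stayed at 0 with 1 sample left out. Between genotypes after tunicamycin the 1 call, Ugt3a1, became 0 with total count scaling, with limma on FPKM under each of its 4 settings (1 of them, without the FPKM column of LKO vehicle 2, chosen after seeing the data) and with the replicate block (-0.65, adjusted p = 0.106), and ranged from 0 to 1 with 1 sample left out; its adjusted p over all alternatives ran from 0.0101 to 0.751. No pairing by replicate number was seen: of 18 same-numbered pairs, 3 had a correlation of deviations over 0.1 (-0.12 to 0.14). Pairs with different numbers reached -0.22 and 0.20. A weaker effect shared by replicate number was not tested. The cause of the turned directions was not tested. On FPKM (pseudocount 1, pseudocount 0.1, no filter, and without the LKO vehicle 2 column), Ugt3a1 gave 0.0651, 0.0719, 0.0651 and 0.119 for the interaction and -0.135, -0.161, -0.135 and -0.135 with tunicamycin in WT, Ugt3a2 -0.107, -0.113, -0.107 and -0.107 with tunicamycin in WT, and Ugt1a5 -0.0423, -0.111, -0.0423 and -0.0950 with tunicamycin in LKO. Ugt3a2 gave -0.17 with total count scaling. With 1 sample left out, Ugt3a2 in WT ranged from -0.15 to 0.12, Ugt1a5 in LKO from -0.24 to 0.42, Sult1a1 between genotypes with vehicle from -0.0761 to 0.277, and Ugt2b1 between genotypes after tunicamycin from -0.93 to 0.43.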
